A study of Mus musculus with 6 samples.

Results

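The genes described here carry glucose into the cell, break it down to pyruvate, and turn pyruvate into lactate that leaves the cell. The set has 10 genes of the 55291 listed in the deposited tables: Slc2a1, Hk2, Pfkp, Aldoa, Pgk1, Eno1, Pkm, Ldha, Pdk1 and Slc16a3. They were chosen by name, with no threshold on a measured value, and all 10 passed the filter on low counts that left 14290 genes for testing. The samples were wild-type mouse embryonic fibroblasts (WT MEFs), cultured in medium with fetal bovine serum, from which polyA RNA was sequenced. There were 3 groups of 2 libraries, described as independent biological replicates: vehicle alone, 1 μM MASM7 for 6 h, and 20 μM MFI8 for 6 h. All 3 groups carried no genetic change, and how long the vehicle was applied is not stated in the sources used here. MASM7 is a small molecule that activates mitofusins, the outer mitochondrial membrane proteins that tether and fuse mitochondria, and MFI8 is one that inhibits them. Because the compounds were used at different concentrations, compound and concentration cannot be told apart when MFI8 is set against MASM7.

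Glycolysis splits glucose into pyruvate in the cytosol and yields ATP and NADH without oxygen. Pyruvate then either enters mitochondria, where the pyruvate dehydrogenase complex oxidizes it, or is reduced to lactate, which regenerates the NAD+ that glycolysis needs. Fibroblasts in glucose-rich culture use both routes, and the transcription factors HIF-1 and MYC are known to drive many genes of this set, so the set is often read as a gauge of the balance between glycolysis and respiration.

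The libraries held between 22791792 and 30677751 counts, and the 10 genes took 0.426% to 0.469% of them. The share of counts from mitochondrially encoded genes was 1.66% and 1.82% (vehicle), 1.61% and 1.51% (MASM7) and 1.37% and 1.43% (MFI8). Of 8 fibroblast markers, 7 were at 1 TPM (the deposited level per transcript length) or more in every library, and the summed level of the list was 4012 to 4967 TPM with vehicle, 4509 to 5064 TPM with MASM7 and 4060 to 4743 TPM with MFI8. The summed level of 4 leukocyte markers was 15.2 to 16.3, 14.6 to 16.9 and 13.4 to 14.0 TPM in the same order, with Adgre1 at 0 in every library and Cd68 its highest gene at 8.91 to 11.9 TPM. The summed level of 4 neural markers was 5.28 to 5.50, 4.50 to 5.29 and 5.42 to 6.02 TPM, with Map2 its highest gene and with Sox2 and Dcx at 0. The summed levels of the epithelial, endothelial, erythroid and skeletal muscle lists were at most 1.69 TPM in any library. The part of these shares and markers in the results below was not tested.

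The sequences upstream of 4 genes are shown because Pdk1 and Pfkp had the smallest p-values of the set against vehicle, Ldha had the smallest between the compounds, and Slc2a1 is the entry of the pathway. They come from the RefSeq promoter table on build GRCm38.p6, which matched all 10 genes, and run up to 250 bases before the most upstream annotated start, without bases in an annotated exon. Capitals mark ACGTG or GCGTG read on either strand, the core letters of sites that HIF-1 binds. The letters CACGTG, the E-box that MYC and the glucose-sensing factors bind, contain this core and are marked with it. The stretches are Pdk1 at chr2:71872974-71873223 (plus strand), Ldha at chr7:46845554-46845803 (plus strand, inside the longer GENCODE gene model and between its exons), Pfkp at chr13:6648778-6649021 (minus strand) and Slc2a1 at chr4:119108495-119108710 (plus strand).
Pdk1: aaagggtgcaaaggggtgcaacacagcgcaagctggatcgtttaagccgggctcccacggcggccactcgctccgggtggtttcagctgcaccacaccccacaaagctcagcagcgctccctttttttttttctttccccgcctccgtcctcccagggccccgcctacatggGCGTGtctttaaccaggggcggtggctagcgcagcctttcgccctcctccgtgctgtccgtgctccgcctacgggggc
Ldha: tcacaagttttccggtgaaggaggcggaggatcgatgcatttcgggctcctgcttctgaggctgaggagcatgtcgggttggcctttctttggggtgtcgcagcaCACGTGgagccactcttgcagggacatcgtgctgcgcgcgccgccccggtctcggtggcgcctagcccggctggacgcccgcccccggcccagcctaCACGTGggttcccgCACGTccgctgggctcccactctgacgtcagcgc
Pfkp: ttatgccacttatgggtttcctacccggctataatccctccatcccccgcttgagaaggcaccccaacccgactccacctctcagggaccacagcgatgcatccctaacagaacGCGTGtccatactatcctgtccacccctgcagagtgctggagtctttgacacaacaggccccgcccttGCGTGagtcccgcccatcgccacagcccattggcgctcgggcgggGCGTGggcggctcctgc
Slc2a1: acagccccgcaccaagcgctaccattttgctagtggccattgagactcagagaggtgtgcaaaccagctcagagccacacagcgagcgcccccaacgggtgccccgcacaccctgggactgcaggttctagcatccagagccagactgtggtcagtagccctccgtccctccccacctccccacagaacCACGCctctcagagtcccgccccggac
The core letters occurred in 1 stretch upstream of Pdk1, in 3 upstream of Ldha and in 3 upstream of Pfkp, counting overlapping matches as 1 stretch. Slc2a1 had 1 such stretch in the part shown. The E-box letters occurred 2 times upstream of Ldha and were not found in the other 3 stretches. Over the 250 bases upstream of the first start, 8 of the 10 genes had the core letters, all but Aldoa and Pkm (with 1 match for Eno1), compared with 38.6% of all 32851 windows in the table. The E-box letters were present upstream of 1 of the 10 genes and in 6.02% of all windows. All windows were compared without matching for base composition, and the core letters hold a CG pair. The 4 stretches shown had 62.3% to 67.2% GC. These matches describe letters, and no binding was measured.

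In WT MEFs the levels of the 10 genes spanned from the most abundant glycolytic transcripts to one that was barely detected. Pkm, whose product makes pyruvate in the last step of glycolysis, had the highest level, with 1455 and 1399 TPM in the vehicle libraries. Ldha, the lactate dehydrogenase subunit that favours lactate formation, followed with 847 and 835 TPM. Aldoa, the aldolase that splits fructose 1,6-bisphosphate, had 594 and 533 TPM and Pgk1, the phosphoglycerate kinase that makes ATP, had 502 and 538 TPM. The vehicle libraries of Aldoa and Pgk1 overlapped, and this was the only pair of neighbours in the order of levels whose libraries overlapped in any of the 3 groups. Eno1 (enolase) stood at 289 and 280 TPM and Slc2a1 (the glucose transporter GLUT1) at 127 and 101 TPM. Hk2, the inducible hexokinase, had 45.4 and 37.8 TPM. Below these lay Pdk1, a kinase that switches off pyruvate dehydrogenase, at 5.38 and 4.60 TPM, Pfkp, the platelet-type phosphofructokinase, at 2.06 and 1.66 TPM, and Slc16a3, the lactate exporter MCT4, at 0.261 and 0.080 TPM. The order of the 10 mean levels was the same with MASM7 and with MFI8.

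**Figure D1:**
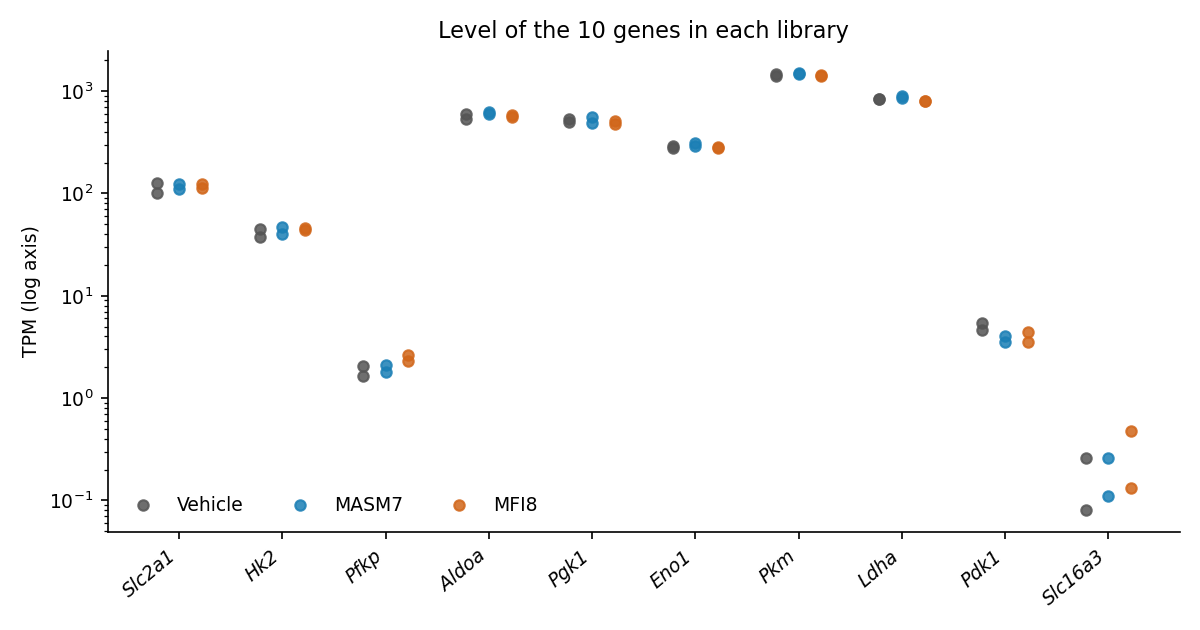
Level of each of the 10 genes in TPM (log axis) with every library as a point, in grey for vehicle, blue for MASM7 and orange for MFI8. Pkm lies at the top with 1399 to 1518 TPM and Slc16a3 at the bottom with 0.080 to 0.472 TPM. For most genes the groups lie close together compared with the distance to the next gene, while Aldoa and Pgk1 lie near each other.

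Several of these genes were not the main isozyme of their step. Pfkp made up 1.05% to 1.61% of the summed TPM of the 3 phosphofructokinases, while the muscle-type Pfkm took 51.8% to 54.0% and the liver-type Pfkl 44.6% to 47.2%. Pdk1 made up 3.24% to 4.77% of the pyruvate dehydrogenase kinases, against 93.7% to 95.4% for Pdk3. Slc16a3 made up 0.0461% to 0.276% of 4 monocarboxylate transporters, and Slc16a1 (MCT1), which carries lactate in either direction, took 99.7% to 99.95%. Thus the 3 members with the lowest levels each stood beside a far more abundant relative.
Hk2 took 39.2% to 42.5% of the hexokinases and the housekeeping form Hk1 nearly all of the rest. Eno1 took 56.0% to 59.9% of the enolases, with 31.9% to 35.4% for Eno1b, an intronless copy of Eno1 whose reads may be shared with it, so the split between these 2 genes is uncertain. In the other steps the member was the main form: Slc2a1 took 92.3% to 93.7% of 7 glucose transporters, Ldha 98.8% to 99.0% of the lactate dehydrogenases, and Aldoa at least 99.8% of the aldolases. Pgk2 and the liver and red cell pyruvate kinase Pklr were listed at 0 TPM in every library. Processed pseudogenes that carry the names of Aldoa (2), Ldha (2) and Pgk1 (3) could also take or give reads, and pseudogenes annotated under other names were not counted for any member. The symbol Aldoa covers 2 neighbouring gene models in GENCODE, at chr7:126795234-126800751 and chr7:126800790-126809108.

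**Figure D2:**
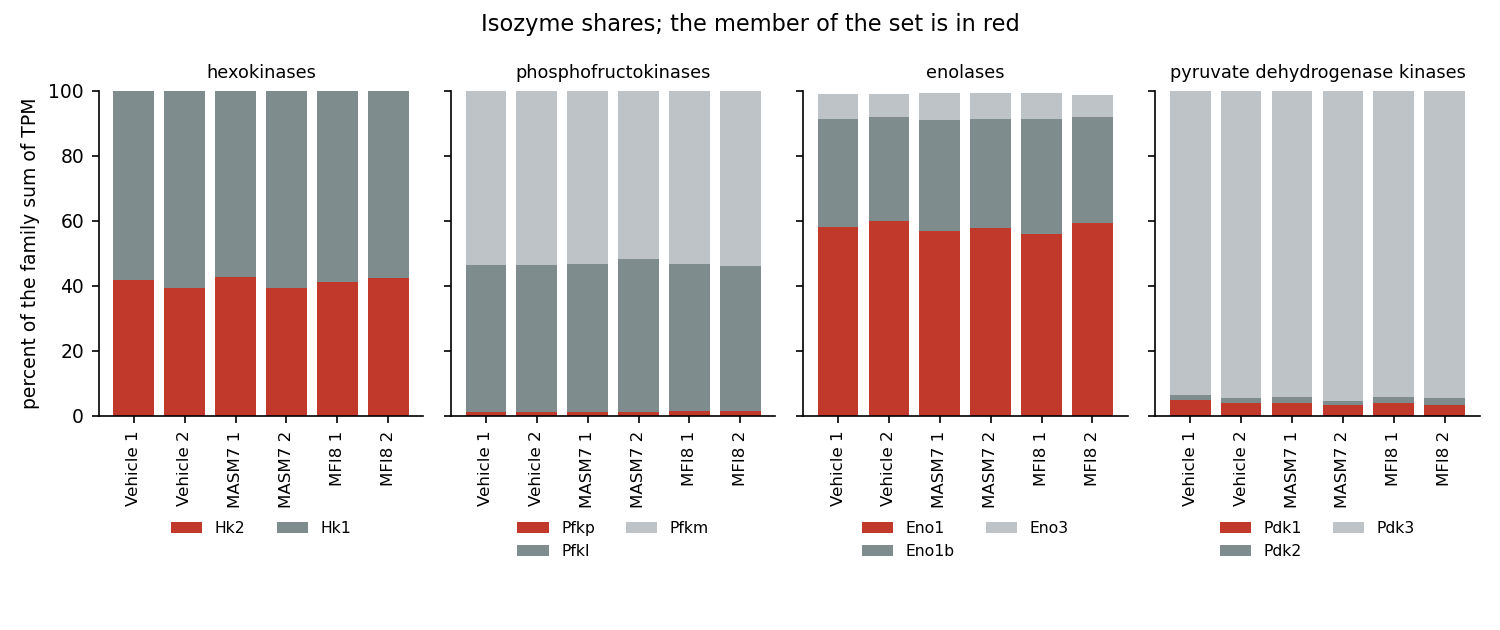
Share of each isozyme in the summed TPM of its family (percent, vertical axis) in each of the 6 libraries for hexokinases, phosphofructokinases, enolases and pyruvate dehydrogenase kinases, with the member of the set in red and isozymes under 1% in every library left out. Hk2 stays between 39.2% and 42.5% and Eno1 between 56.0% and 59.9%, while Pfkp and Pdk1 are thin slices at the base.

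The first comparison asked how the fusion inhibitor MFI8 altered the set. None of the 10 genes passed an adjusted p of 0.05 in edgeR's quasi-likelihood test, where the share over all 14290 genes was 0% as well. The count at an unadjusted p under 0.05 was 1409 of all genes, and the adjusted count over all genes was 49 with DESeq2 and 0 with limma, with 0 of the 10 genes among the calls of either tool. With the replicate number added to the edgeR fit as a block, 720 genes (5.04%) passed, and again 0 of the 10. At an unadjusted p under 0.05, 2 of the 10 genes stood out, Pfkp higher and Pdk1 lower, against 9.86% of all genes. The libraries of the groups did not overlap for Pfkp, the 1 gene that was higher in both MFI8 libraries (20.9% of all genes), and for Pgk1, Ldha and Pdk1, which were lower in both (19.3% of all genes). A log2 fold change below 0 was found for 6 of the 10 genes (49.3% of all genes), and its median over the set was -0.02, beside 0.003 over all genes. Without vehicle replicate 1 that median was 0.05 and without vehicle replicate 2 it was -0.07. Over the 9 genes other than Slc16a3, whose counts were low, it was -0.035. P-values here rest on a spread shared over the 3 groups of 2 libraries and drawn toward that of other genes. In bulk RNA fewer cells of a kind cannot be told apart from less RNA per cell.

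Pfkp lies at chr13:6579768-6648777 on the minus strand (GRCm38) and its product commits fructose 6-phosphate to glycolysis. It had 7.85 and 6.24 CPM (counts scaled to library size) with vehicle and 9.75 and 8.65 CPM with MFI8, from 157 to 267 counts a library. Both MFI8 libraries were thus above both vehicle libraries. The log2 fold change was 0.38 (SE 0.15, 95% interval 0.04 to 0.73), with an adjusted p of 0.451 in edgeR. It stayed positive when any 1 library was left out, between 0.23 without vehicle replicate 2 and 0.56 without vehicle replicate 1. The abundant isozymes Pfkl and Pfkm had log2 fold changes of -0.03 (SE 0.06) and -0.02 (SE 0.06), with libraries that overlapped those of vehicle.

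Pdk1, at chr2:71873224-71903858 on the plus strand, encodes a mitochondrial kinase that phosphorylates pyruvate dehydrogenase and so keeps pyruvate out of the citric acid cycle. Its libraries had 11.9 and 10.1 CPM with vehicle and 9.49 and 7.62 CPM with MFI8, from 218 to 272 counts. Both MFI8 libraries were below both vehicle libraries. The log2 fold change was -0.37 (SE 0.15, 95% interval -0.70 to -0.03), with an adjusted p of 0.455, and leaving out 1 library moved it to between -0.53 without MFI8 replicate 1 and -0.21 without MFI8 replicate 2. Pdk3, the dominant kinase of the family, had 77.2 and 80.0 CPM with vehicle and 75.4 and 68.6 CPM with MFI8, and a log2 fold change of -0.13 (SE 0.07, adjusted p = 0.548). The groups of Pdk3 did not overlap in CPM but did in TPM.

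Ldha, at chr7:46841475-46855627 on the plus strand, had 798 and 777 CPM with vehicle and 743 and 732 CPM with MFI8. The MFI8 libraries lay below both vehicle libraries, with a log2 fold change of -0.10 (SE 0.05, 95% interval -0.20 to 0.01) and an adjusted p of 0.552. Pgk1, at chrX:106187100-106203699 on the plus strand, had 320.7 and 339 CPM with vehicle and 300.3 and 320.5 CPM with MFI8, so that its groups only just failed to overlap in CPM, and in TPM they overlapped. Its log2 fold change was -0.09 (SE 0.07, adjusted p = 0.701), and it moved to between -0.14 without MFI8 replicate 2 and -0.04 without MFI8 replicate 1.
The other abundant enzymes overlapped between the groups. Eno1, at chr4:150236721-150248879 on the plus strand, had 442 and 424 CPM with vehicle and 414 and 429 CPM with MFI8, a log2 fold change of -0.04 (SE 0.06). Pkm, at chr9:59656368-59679375 on the plus strand, had 2072 and 1967 CPM with vehicle and 1962 and 1981 CPM with MFI8, a log2 fold change of -0.03 (SE 0.05). When GC content and transcript length were fitted, these values moved to -0.10 for Eno1 and -0.11 for Pkm (adjusted p = 0.659 and 0.576). With the replicate block added to that fit, Pkm passed the adjusted test (-0.11, adjusted p = 0.0393) and Eno1 did not. In the fit without these terms, leaving out vehicle replicate 1 gave -0.007 for Eno1 and 0.01 for Pkm. Aldoa, on the minus strand of chromosome 7, had 628 and 556 CPM with vehicle and 607 and 575 CPM with MFI8, and the 95% interval of its log2 fold change ran from -0.15 to 0.14.

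At the entry of the pathway the libraries overlapped too. Slc2a1, at chr4:119108711-119137983 on the plus strand, had 127 and 99.3 CPM with vehicle and 121 and 111 CPM with MFI8. Its log2 fold change was 0.04 (SE 0.10, 95% interval -0.19 to 0.27), and it was -0.13 without vehicle replicate 2, -0.02 without MFI8 replicate 1 and -0.01 with GC content and length fitted. Hk2, at chr6:82725025-82774454 on the minus strand, had 77.2 and 63.4 CPM with vehicle and 73.0 and 76.2 CPM with MFI8. Its log2 fold change of 0.09 (SE 0.10, 95% interval -0.13 to 0.31) became -0.05 without vehicle replicate 2. The spread between the 2 vehicle libraries was therefore wider than the distance between the groups for both genes. Slc16a3, at chr11:120948480-120960868 on the plus strand, was covered by 9 and 3 counts in the vehicle libraries, 5 and 12 in the MASM7 libraries and 16 and 6 in the MFI8 libraries, and a change in either direction was not detectable at this depth.

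The fusion activator MASM7 gave a second comparison with the same vehicle libraries. Again none of the 10 genes passed an adjusted p of 0.05 in edgeR, where 0% of all genes passed. Over all genes 1458 had an unadjusted p under 0.05, and 3 passed the adjusted threshold with DESeq2 and 0 with limma, with 0 of the 10 genes among them. With the replicate block 554 genes (3.88%) passed, and 0 of the 10. Pdk1 was the only gene of the set at an unadjusted p under 0.05, against 10.2% of all genes. The libraries did not overlap for Eno1, Pkm and Ldha, which were higher in both MASM7 libraries (21.2% of all genes), and for Pdk1, which was lower in both (21.6% of all genes). Only 1 of the 10 genes, Pdk1, had a log2 fold change below 0 (49.9% of all genes), and the median over the set was 0.09 beside 0.0007 over all genes. That median was 0.18 without vehicle replicate 1 and -0.003 without vehicle replicate 2, so its direction rested on 1 vehicle library. With GC content and transcript length fitted it was 0.02, and Slc2a1, Eno1 and Pkm were also below 0.

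Pdk1 had 9.06 and 7.92 CPM with MASM7, both below the 11.9 and 10.1 CPM with vehicle. The log2 fold change was -0.37 (SE 0.15, 95% interval -0.70 to -0.04), with an adjusted p of 0.477. Leaving out 1 library at a time gave values between -0.49 without vehicle replicate 2 and -0.25 without vehicle replicate 1. The values with both compounds rest on the same 2 vehicle libraries. Pdk3 had 73.0 and 76.7 CPM with MASM7 and a log2 fold change of -0.07 (SE 0.06, adjusted p = 0.713).

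The abundant enzymes late in the pathway had small positive values. Pkm had 2117 and 2178 CPM with MASM7, above the 2072 and 1967 CPM with vehicle, and a log2 fold change of 0.09 (SE 0.05, adjusted p = 0.539). Eno1 had 447 and 483 CPM, above 442 and 424 CPM, with a log2 fold change of 0.10 (SE 0.06, adjusted p = 0.542). With GC content and transcript length fitted, both values came near 0, at -0.0265 for Pkm and -0.0116 for Eno1, which is too small for a direction. Ldha had 802 and 843 CPM against 798 and 777 CPM, with a log2 fold change of 0.06 (SE 0.05, adjusted p = 0.663), and 0.02 in that fit.
Aldoa had 627 and 667 CPM with MASM7, which overlapped vehicle, and a log2 fold change of 0.13 (SE 0.07, adjusted p = 0.528) that was 0.02 with GC content and length fitted. Pgk1 had 312 and 358 CPM with MASM7, on either side of the 321 and 339 CPM with vehicle, and its 95% interval ran from -0.14 to 0.18. Without MASM7 replicate 2 the values were 0.03 for Ldha, 0.05 for Eno1 and 0.08 for Aldoa, and without vehicle replicate 2 they were 0.05 for Pkm and 0.04 for Aldoa. None of these 5 enzymes passed the adjusted test.

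The upstream genes showed no separation with MASM7. Slc2a1 had 124 and 112 CPM and a log2 fold change of 0.06 (SE 0.10), which was -0.11 without vehicle replicate 2, -0.02 without MASM7 replicate 1 and -0.01 with GC content and length fitted. Hk2 had 80.4 and 68.8 CPM and a log2 fold change of 0.09 (SE 0.10), which was -0.05 without vehicle replicate 2 and -0.03 without MASM7 replicate 1. Pfkp had 8.05 and 6.90 CPM and a log2 fold change of 0.09 (SE 0.16), which was -0.07 without vehicle replicate 2 and -0.03 without MASM7 replicate 1. For all 3 genes the direction turned with the library left out. Set against the vehicle library of the same replicate number, Hk2 and Pfkp were higher in both MASM7 libraries and Slc2a1 in 1 of the 2, and with the replicate block their adjusted p-values were 0.46, 0.741 and 0.523.

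**Figure D3:**
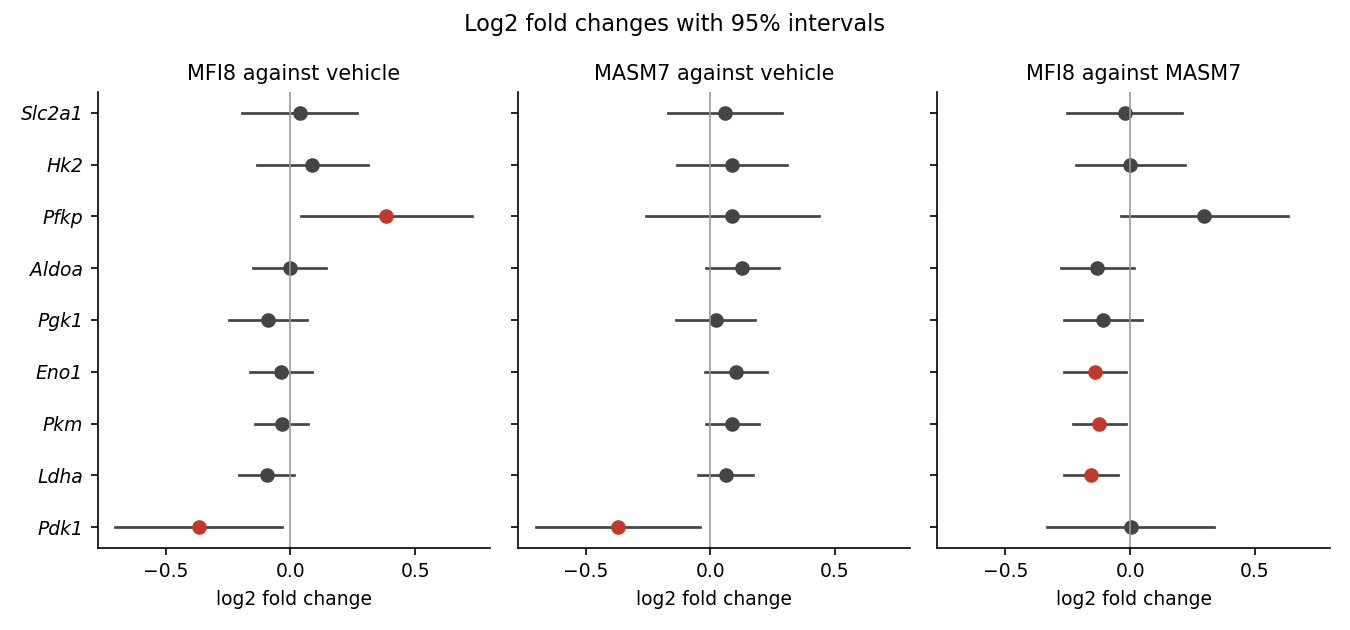
Log2 fold change (horizontal axis) of 9 of the 10 genes in the 3 comparisons, with bars for the 95% interval of the edgeR fit of 6 libraries and red points where the unadjusted interval leaves out 0. Slc16a3 is left out because its counts were 3 to 16 a library. Pfkp (0.38) and Pdk1 (-0.37) stand out with MFI8, Pdk1 (-0.37) with MASM7, and Eno1, Pkm and Ldha (-0.14, -0.12 and -0.16) between the compounds.

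Set against each other at their different concentrations, the compounds gave lower levels of Aldoa, Eno1, Pkm and Ldha in both MFI8 libraries than in both MASM7 libraries, by amounts that did not pass the adjusted test. None of the 10 genes passed an adjusted p of 0.05 in edgeR, beside 0% of all genes. Over all genes 1026 had an unadjusted p under 0.05, and DESeq2 gave 21 adjusted calls and limma 0, with 0 of the 10 genes among them. With the replicate block 439 genes (3.07%) passed, and Ldha was 1 of them. At an unadjusted p under 0.05 there were 3 of the 10 genes, all lower with MFI8, against 7.18% of all genes in either direction and 2.95% that were lower. The libraries did not overlap for Aldoa, Eno1, Pkm and Ldha, which were lower with MFI8 (19.6% of all genes), and for Pfkp, which was higher (19.6% of all genes). Values were below 0 for 6 of the 10 genes (50.5% of all genes), and the median log2 fold change over the set was -0.07 beside -0.002 over all genes. That median was -0.11 without MFI8 replicate 1 and -0.04 without MASM7 replicate 1, and -0.02 with limma and no filter. Over the 9 genes other than Slc16a3, whose counts were low, it was -0.109.

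Ldha had the smallest p of the set here, with 743 and 732 CPM with MFI8 against 802 and 843 CPM with MASM7. The log2 fold change was -0.16 (SE 0.05, 95% interval -0.27 to -0.05), with an adjusted p of 0.567 in edgeR and 0.0459 with the replicate block, and -0.13 with GC content and length fitted. Eno1 had 414 and 429 CPM against 447 and 483 CPM, a log2 fold change of -0.14 (SE 0.06, adjusted p = 0.649). Pkm had 1962 and 1981 CPM against 2117 and 2178 CPM, a log2 fold change of -0.12 (SE 0.05, adjusted p = 0.649). On the linear scale these were -8.19% for Pkm, -9.33% for Eno1 and -10.3% for Ldha.
With GC content and length fitted, Eno1 was at -0.09 and Pkm at -0.08. Aldoa had 607 and 575 CPM with MFI8 against 627 and 667 CPM with MASM7, a log2 fold change of -0.13 (SE 0.07, adjusted p = 0.711). Pgk1 overlapped, with a log2 fold change of -0.11 (SE 0.07, adjusted p = 0.761) that was -0.20 without MASM7 replicate 1 and -0.0079 without MASM7 replicate 2. Without that MASM7 library Eno1 was at -0.08 and Aldoa at -0.09. Pfkp went the other way, with 9.75 and 8.65 CPM against 8.05 and 6.90 CPM and a log2 fold change of 0.30 (SE 0.15, adjusted p = 0.711), which was 0.19 without MASM7 replicate 2. For Slc2a1, Hk2 and Pdk1 the 95% intervals of the log2 fold change were -0.25 to 0.21, -0.22 to 0.22 and -0.33 to 0.34, and their libraries overlapped.

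**Figure D4:**
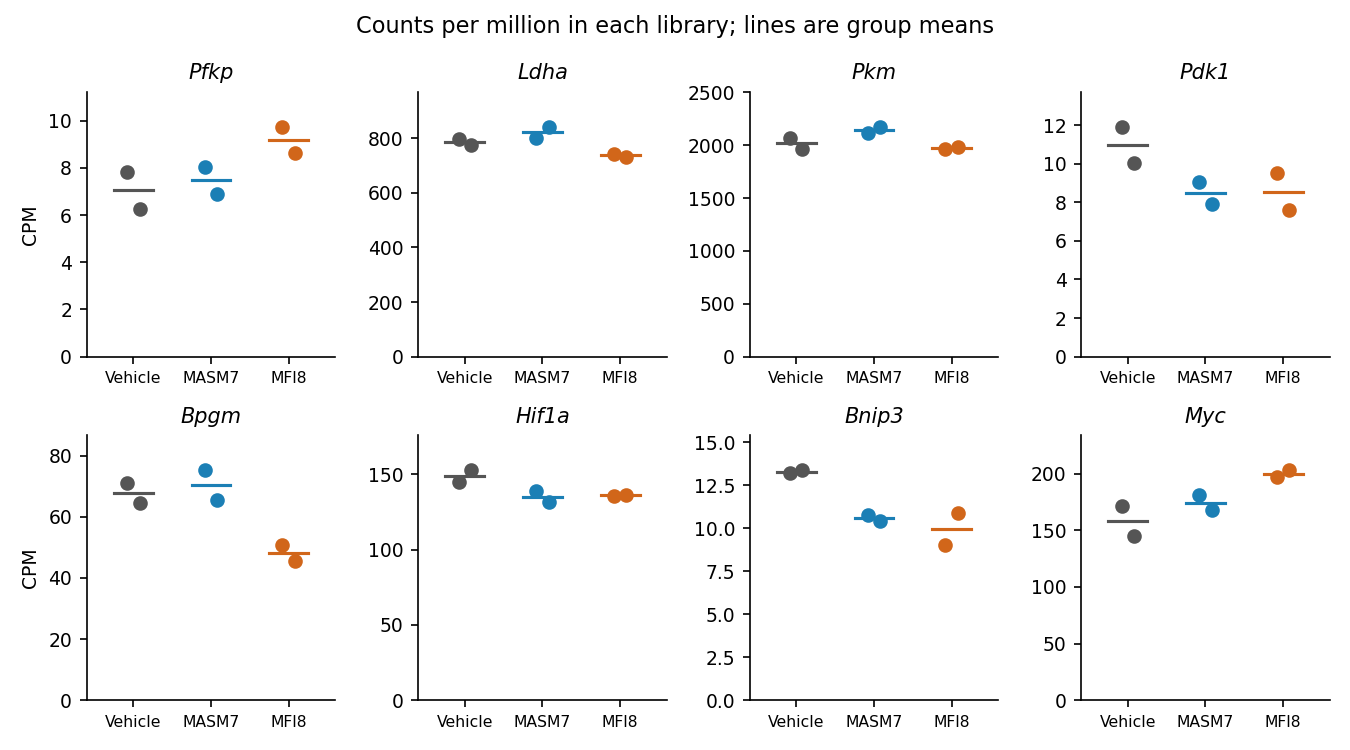
CPM (vertical axes from 0) of 4 genes of the set and 4 genes around it in each library, with a line at the mean of each group of 2 libraries. Pdk1, Hif1a and Bnip3 lie below vehicle with both compounds, while Bpgm at 50.6 and 45.7 CPM lies below the other libraries with MFI8 alone and Myc is highest with MFI8.

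The rest of glycolysis and its surroundings was read from a list of 104 further genes, of which 80 were tested. None passed an adjusted p of 0.05 in any of the 3 comparisons in edgeR, and limma called 0. DESeq2 called 2 of them with MFI8 against vehicle, 0 with MASM7 against vehicle and 1 between the compounds, against 49, 3 and 21 of all 14290 genes. With the replicate block in edgeR 7 of the 80 were called with MFI8 (Pgam1, Bpgm, Bnip3, P4ha1, Ndrg1, Myc and Pck2), 1 with MASM7 (Pck2) and 2 between the compounds (Bpgm and Myc), against 5.04%, 3.88% and 3.07% of all genes. At an unadjusted p under 0.05 there were 4 higher and 6 lower with MFI8, against 5.21% and 4.65% of all genes. With MASM7 there were 6 higher and 4 lower, against 5.32% and 4.88% of all genes. Between the compounds 1 was higher and 4 were lower with MFI8, against 4.23% and 2.95% of all genes. Over the 80 genes the median log2 fold change was 0.01 with MFI8 and 0.03 with MASM7, beside 0.003 and 0.0007 over all genes. Without vehicle replicate 1 these medians were 0.05 and 0.08, without vehicle replicate 2 they were -0.03 and 0.003, and with GC content and length fitted -0.007 and -0.0009, so no direction is given for either.

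Of the remaining steps of glycolysis, the isomerases and Gapdh had small values with either compound, and the mutases larger ones with MFI8. Gapdh, which makes NADH, had 1259 and 1201 CPM with vehicle, 1258 and 1322 CPM with MASM7 and 1213 and 1272 CPM with MFI8. Tpi1 (triose phosphate isomerase) had 565 and 519, 556 and 561, and 526 and 506 CPM in the same order, and Gpi1 (glucose 6-phosphate isomerase) 254 and 243, 255 and 262, and 254 and 258 CPM. Their log2 fold changes against vehicle lay between -0.07 and 0.07.
Pgam1, the phosphoglycerate mutase, had 123 and 134 CPM with vehicle, 119.5 and 125 CPM with MASM7 and 113 and 113 CPM with MFI8. With MASM7 its log2 fold change was -0.07 (SE 0.06), with libraries that overlapped those of vehicle. With MFI8 it had a log2 fold change of -0.19 (SE 0.06, adjusted p = 0.398, and 0.0245 with the replicate block), which was -0.12 without vehicle replicate 2. Bpgm, which makes and breaks down 2,3-bisphosphoglycerate, had the smallest p of the wider list. It had 71.0 and 64.5 CPM with vehicle, 75.3 and 65.5 CPM with MASM7, and 50.6 and 45.7 CPM with MFI8. The log2 fold change with MFI8 was -0.49 against vehicle (SE 0.09, adjusted p = 0.107) and -0.55 against MASM7 (SE 0.09, adjusted p = 0.169). For these differences DESeq2 gave adjusted p = 0.00115 and 0.000268, and edgeR with the replicate block 1.72e-06 and 3.92e-07. With MASM7 against vehicle the value was 0.06 (SE 0.08), and its libraries overlapped those of vehicle.

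The genes of the HIF pathway and its targets were mixed in direction. Values were below 0 for 6 of 7 tested genes of the HIF pathway with either compound, and for 7 of 11 other HIF targets with MFI8 and 5 of 11 with MASM7, against 49.3% and 49.9% of all genes. Most of the 7 genes limit HIF rather than form it, so their count gives no direction of the pathway. Some of these values were also under 0.03 in size or rested on few counts. At an unadjusted p under 0.05 there were 1 of the 7 and 3 of the 11 with either compound, all lower, against 4.65% (MFI8) and 4.88% (MASM7) of all genes that were lower. Hif1a, the oxygen-regulated subunit of HIF-1, had 145 and 153 CPM with vehicle, 139 and 131 CPM with MASM7 and 135 and 136 CPM with MFI8. Its log2 fold change was -0.14 with MASM7 (SE 0.05, adjusted p = 0.477) and -0.13 with MFI8 (SE 0.06, adjusted p = 0.468), and with GC content and length fitted it was -0.05 and -0.08. Bnip3, a mitophagy receptor induced by HIF-1, had 13.2 and 13.4 CPM with vehicle, 10.8 and 10.5 CPM with MASM7 and 9.01 and 10.9 CPM with MFI8. All 4 treated libraries lay below both vehicle libraries for both genes, with log2 fold changes of Bnip3 of -0.32 (SE 0.12, adjusted p = 0.473) and -0.41 (SE 0.12, adjusted p = 0.358, and 0.0262 with the replicate block). Among 19 alternatives, only the block in edgeR called Bnip3 with MFI8.
P4ha1, a collagen prolyl hydroxylase, and Kdm3a, a histone demethylase, had the same arrangement. P4ha1 had 149.6 and 148.6 CPM with vehicle, 134 and 138 CPM with MASM7 and 126 and 136 CPM with MFI8 (adjusted p = 0.387 with MFI8, and 0.0214 with the replicate block). Kdm3a had 57.7 and 57.5, 51.5 and 48.7, and 49.1 and 52.4 CPM. Both compounds were set against the same vehicle libraries. Over the 11 HIF targets the median was -0.10 with MFI8 and 0.03 with MASM7.
Another 4 genes of these lists, chosen after their values were seen, lay differently. P4ha2, another collagen prolyl hydroxylase, had 40.1 and 37.9 CPM with vehicle, 41.6 and 42.9 CPM with MASM7 and 43.5 and 41.0 CPM with MFI8. Egln2, an oxygen-sensing prolyl hydroxylase that marks HIF for breakdown, had 46.9 and 44.2, 51.0 and 48.6, and 47.6 and 47.5 CPM in the same order. All 4 treated libraries thus lay above both vehicle libraries for P4ha2 and Egln2, at adjusted p-values of 0.518 or more. Ankrd37, from 24 to 55 counts a library, had 1.53 and 1.47 CPM with vehicle, 1.62 and 1.81 CPM with MASM7 and 1.05 and 1.00 CPM with MFI8, so that it was below vehicle with MFI8 and above it with MASM7. Ndrg1, a hypoxia-induced gene, had 83.9 and 56.2, 101.9 and 66.2, and 84.7 and 81.0 CPM, with overlap in every comparison when libraries of all numbers are set against each other. Among libraries of the same replicate number both treated libraries lay above vehicle with either compound. Its log2 fold change with MFI8 was 0.24 (SE 0.20, adjusted p = 0.711), and 0.28 with the replicate block (adjusted p = 0.0401). With MASM7 it was 0.27 (SE 0.20, adjusted p = 0.645), and 0.26 with the block (adjusted p = 0.0585).

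**Figure D5:**
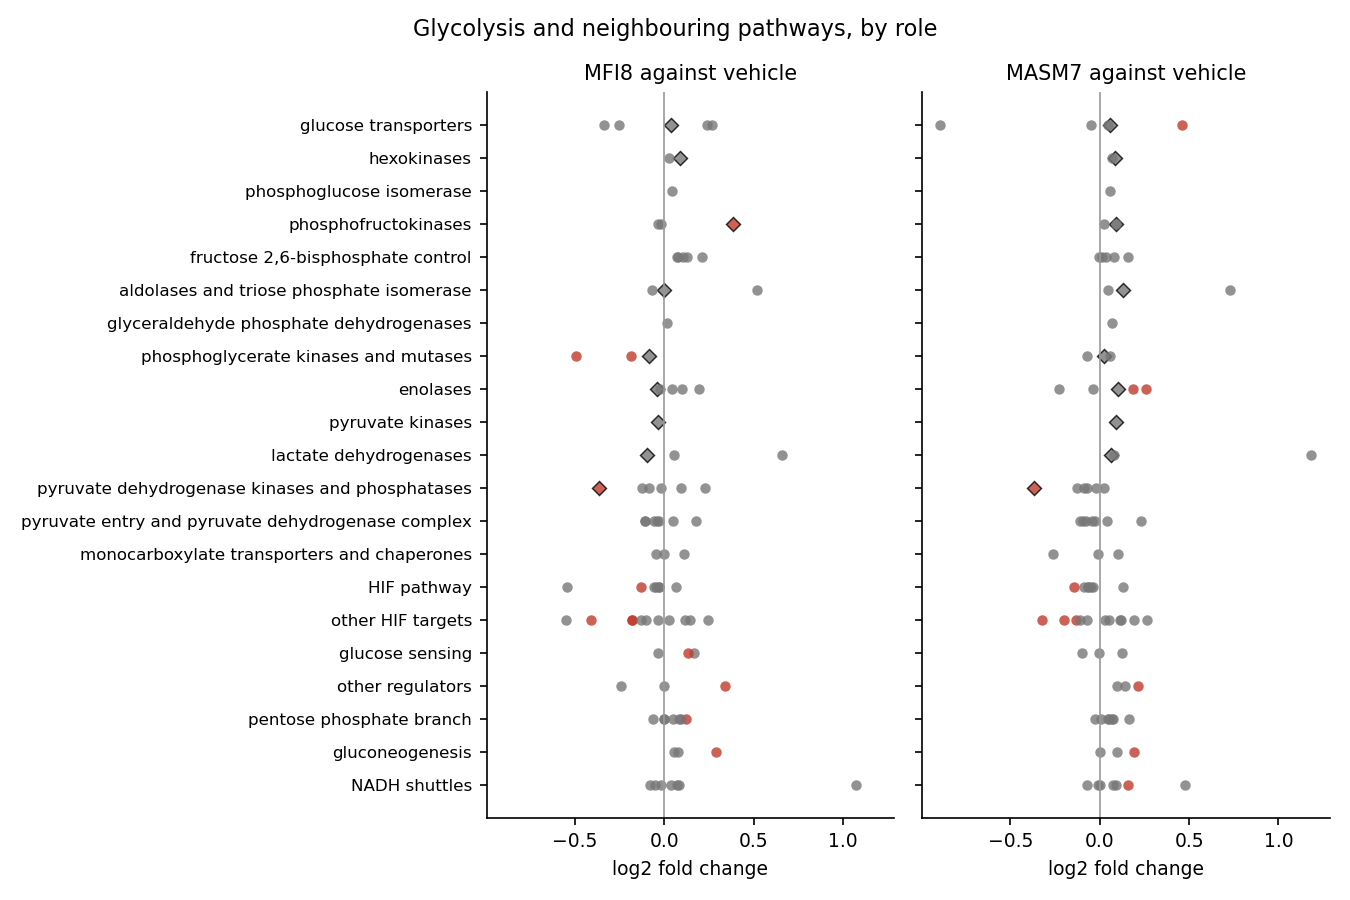
Log2 fold change against vehicle (horizontal axis) of the tested genes of glycolysis and neighbouring pathways by role, for MFI8 and MASM7, with members of the set as diamonds, other genes as circles and an unadjusted p under 0.05 in red. Slc16a3 is left out. Most points lie near 0, the red points of the HIF rows lie to the left in both panels, and Bpgm (-0.49) lies to the left with MFI8.

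Other branches had single genes that differed in both libraries. Myc, which drives many glycolytic genes, had 171 and 145 CPM with vehicle, 181 and 168 CPM with MASM7 and 197 and 203 CPM with MFI8, a log2 fold change with MFI8 of 0.34 (SE 0.08, adjusted p = 0.270, 0.038 with DESeq2 and 7.15e-05 with the replicate block) that was 0.23 without vehicle replicate 2. Pck2, the mitochondrial enzyme that makes phosphoenolpyruvate, had 68.0 and 72.0 CPM with vehicle, 76.9 and 83.2 CPM with MASM7 and 80.5 and 90.3 CPM with MFI8. Its log2 fold changes were 0.19 (SE 0.07, adjusted p = 0.477, and 0.0367 with the replicate block) with MASM7 and 0.29 (SE 0.07, adjusted p = 0.336, and 0.00128 with the block) with MFI8. Myc was also higher with MFI8 than with MASM7, with a log2 fold change of 0.20 (SE 0.08, adjusted p = 0.649, and 0.0228 with the block).
With MASM7, higher values were found for Mdh2, the mitochondrial malate dehydrogenase (log2 fold change 0.16, adjusted p = 0.476), for Sirt6, a deacetylase known to repress glycolytic genes (0.21, adjusted p = 0.479), for Eno3, the muscle enolase (0.26, adjusted p = 0.477), and for Eno1b (0.19, adjusted p = 0.477). All 4 had both MASM7 libraries above both vehicle libraries. Without vehicle replicate 2 the value was 0.16 for Eno3 and 0.10 for Eno1b, without MASM7 replicate 2 it was 0.09 for Mdh2, and with GC content and length fitted it was 0.09 for Sirt6. Txnip, a brake on glucose uptake that responds to glucose, had 3.64 and 3.38 CPM with vehicle, 3.14 and 3.39 CPM with MASM7 and 3.18 and 4.60 CPM with MFI8, with overlap in both comparisons.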

How the data were processed

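RNA-seq counts of 6 WT MEF libraries were analysed, 2 each with vehicle, 1 μM MASM7 and 20 μM MFI8. Groups and replicate numbers came from the sample labels, and concentrations and times from the study's text. Per the labels and methods, the authors used Trimmomatic for trimming, STAR for alignment to GRCm38 and featureCounts for counting over exons; the annotation release and strand setting are not given in the sources used here. The authors deposited raw counts per gene, which were tested, and TPM values, which were used to compare levels between genes. The authors' DESeq2-normalized counts were not used.

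Counts were fitted in edgeR 4.0.16 (R 4.3.3) with TMM factors, 1 coefficient per group and all 6 libraries, after filterByExpr (14290 of 55291 genes), and each comparison used edgeR's two-sided quasi-likelihood F test, with p-values adjusted by Benjamini-Hochberg over all genes tested, at 0.05. CPM used TMM factors, and overlap between groups was read on CPM. Standard errors were derived from the fold change and its F statistic. With 2 libraries against 2, an exact permutation test cannot go below p = 0.333, so none is given. The scripts were tested on simulated counts.

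The groups shared replicate numbers 1 and 2, and no source says that these mark a shared day or batch. Deviations of same-numbered libraries correlated at 0.188, 0.152 and 0.165 (vehicle with MASM7, vehicle with MFI8, MASM7 with MFI8) over all tested genes, and at 0.508, 0.621 and 0.538 over the 7145 genes with a mean log2 CPM above the median. The values with the replicate number as a block are therefore given beside the results whose call they change; with only 2 numbers, whether these mark pairs cannot be told from the data.

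The 10 genes, the wider list of 114 genes by role and the cell type markers were chosen with earlier results of these data known. Of the wider list, isozymes of the members, Gapdh, Tpi1, Gpi1, Pgam1, Hif1a, Txnip and the up to 12 genes whose libraries did not overlap vehicle at an unadjusted p under 0.05 (smallest p first) could be named; P4ha2, Egln2, Ankrd37 and Ndrg1 were named outside this rule after their values were seen. For single genes in the reported fit, directions were given only for log2 fold changes of at least 0.03 in size with at least 10 counts in every library. Most other values come with an interval or SE. Counts of genes below 0 and medians take in all tested genes of a list, whatever the size of the value. Loci come from GENCODE M21, and promoter sequences from RefSeq.

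The alternatives were DESeq2 size factors, library size alone, other count filters, only the groups compared, a replicate block, the DESeq2 1.42.0 Wald test, limma 3.58.1 on log2(TPM + 1) and log2(TPM + 0.1), and each library left out. Offsets for GC content and transcript length, which 97.9% of tested genes had, were added after the data were seen.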

Additional observations from a re-analysis of the deposited data

How the results depend on the processing

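The numbers of genes called at an adjusted p of 0.05 depended on the fit, and the cause was not tested. Against the 0 calls of the reported fit in each comparison, the counts for MFI8 against vehicle, MASM7 against vehicle and MFI8 against MASM7 were 256, 127 and 168 with no filter beyond 1 count in any library, and 49, 3 and 21 with the DESeq2 Wald test. They were 1 for MASM7 against vehicle and 2 for MFI8 against MASM7 with only the groups compared, and 13 for MASM7 against vehicle with limma and no filter. Leaving out each library in turn gave 0 to 26, 0 to 2 and 0 to 24 calls; where it left 1 library in a group, that library was assumed to vary like the others.

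With the replicate number as a block, calls were 720, 554 and 439, and with DESeq2 and the replicate block 218, 184 and 113. With GC content and length offsets, an alternative chosen after seeing the data, together with the replicate block, they were 595, 152 and 675. Of the 10 genes, only Ldha in MFI8 against MASM7 was called with the block (1 gene, adjusted p = 0.0459, 0.0335 with DESeq2 and 0.0202 with the offsets), and Pkm in MFI8 against vehicle with the offsets and the block (1 gene, adjusted p = 0.0393). No other alternative called a member.

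Of the wider list, 3, 1 and 1 genes were called with no filter, 7, 1 and 2 with the replicate block, and 2 and 1 with DESeq2 for the comparisons with MFI8 (3 and 1 with its block, 6 and 2 with the offsets and block). Leaving out 1 library called 0 to 1 of them in MFI8 against MASM7.

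With MASM7 against vehicle the median over the 10 genes was 0.016 with the offsets and 0.0154 with the block added, and that of the 80 genes was -0.000923 and -0.000879. With limma at pseudocounts of 1 and 0.1, the median of the 80 genes was 0.0415 and 0.0416 with MFI8 against vehicle and 0.0275 and 0.0277 with MFI8 against MASM7, while the median over all genes was 0.0253 and 0.0271, and 0.0382 and 0.0402, in the same fits. Without 1 library, the median of the 10 genes ran from -0.0699 to 0.0473 with MFI8 and from -0.00284 to 0.175 with MASM7, and that of the 80 genes from -0.0277 to 0.0454 and from 0.00332 to 0.0822.

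Values fell below 0, but at sizes under 0.03 that are given no direction, for Slc2a1 (-0.0131 with the offsets and -0.00635 with the offsets and block for MFI8, -0.00827 and -0.00545 for MASM7). With MASM7 the same held for Eno1 (-0.0116 and -0.0119) and Pkm (-0.0265 and -0.0265). None of these values was below 0 with the block alone. Leaving out 1 library gave ranges that crossed 0 for Slc2a1 (-0.129 to 0.224 with MFI8, -0.106 to 0.245 with MASM7), Hk2 (-0.0478 to 0.239 and -0.0493 to 0.235), Pkm with MFI8 (-0.0717 to 0.00502) and Pfkp with MASM7 (-0.0702 to 0.26). Every direction given for Pdk1, Ldha and Bpgm was kept under all alternatives. Slc16a3, with 3 to 16 counts, is too shallow for a direction.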

Other observations

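The median over the 10 genes of log2 CPM, centred for each gene over the 6 libraries, was 0.04 and -0.09 in the vehicle libraries, 0.04 and 0.10 in the MASM7 libraries, and -0.002 and -0.05 in the MFI8 libraries. The vehicle libraries thus differed by 0.131, while the group means of this value differed by 0.0021 between MFI8 and vehicle, 0.0971 between MASM7 and vehicle and 0.095 between the compounds. Of 8820 genes outside the lists with a mean of at least 10 CPM, the 5 whose log2 CPM followed the mean of the 10 genes most closely are not named, because they had 0 genes in common with the 5 found without Slc16a3, a comparison added after the data were seen. The mean over the 10 genes correlated at 0.919 with Slc16a3 alone, whose counts were 3 to 16, and at 0.83 with the mean over the other 9 genes, over 6 libraries that all these values share.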
